A study of Mus musculus with 4 samples.

Results

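Ubiquitin-specific protease (USP) and ovarian tumour domain (OTU) genes were examined for binding of SHP in the mouse intestine. Members were all protein-coding genes of the mouse RefSeq annotation on GRCm38.p6 whose symbol starts with Usp and a digit, with Otud or with Otub. This gave 66 genes of 21887 protein-coding genes on chromosomes 1 to 19, X and Y. They comprise 50 USP genes, 5 copies of the Usp17-like cluster, 10 OTU genes (8 Otud and 2 Otub genes) and Usp6nl. Usp6nl carries a matching symbol but encodes a GTPase-activating protein for Rab proteins, not a deubiquitinase, so the name of the group is wrong for this gene. Counts are also given without it.

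Deubiquitinases remove ubiquitin from proteins. They are cysteine proteases in the USP and OTU families, and by trimming ubiquitin chains they spare substrates from the proteasome, reset receptor sorting, or erase the ubiquitin marks on histones H2A and H2B. USP enzymes form the most diverse family and often cleave several chain types, whereas many OTU enzymes prefer particular chain linkages. SHP (small heterodimer partner, gene Nr0b2) is an orphan nuclear receptor without a DNA-binding domain, and reaches chromatin through other transcription factors to repress genes of bile acid and lipid metabolism.

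SHP was immunoprecipitated from chromatin of jejunum and ileum of SHP-KO mice and of wild-type (WT) mice, and the recovered DNA was sequenced (ChIP-seq). All animals had the C57BL/6 strain background, were 8 to 12 weeks old, had been fasted for 12 h and had then eaten normal chow again for 4 h. Each genotype had 1 immunoprecipitation sample and 1 input sample, built from 3 sets that each pooled 3 mice. The SHP-KO mice, by their label without SHP, serve as the control for what the antibody recovers in its absence. Loss of the SHP protein could not be checked from peak lists. How the SHP allele was deleted, and in which tissues, is not given in the sources used here. No separation of cell types is named, so epithelium cannot be told apart from muscle, immune and nerve cells, and peak files carry no expression values against which the tissue label could be checked.

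The data were 1 peak list for each genotype, with 7 peaks in SHP-KO and 5775 peaks in WT intestine. A peak is a stretch of the genome with more immunoprecipitated reads than its surroundings, and its summit is the base where the signal is highest. The deposited enrichment value of each peak is the authors' own, on a scale that is not stated, and read depth is unknown. Because there was no list for each replicate set, no value has a replicate error, and no test between genotypes could be made. A gene was called occupied when a summit lay within 5 kb of either of its ends.

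No member was occupied in SHP-KO intestine, and 25 of 66 members were occupied in WT intestine. In SHP-KO intestine 4 of 21887 protein-coding genes (0.0183%) were occupied, and the KO summit closest to any member lay 806472 bp from Usp31. The 2 lists were filtered differently, so the contrast describes the lists and was not tested. The 25 occupied members in WT were 37.9% of the group (95% exact binomial interval 26.2 to 50.7), beside 26.4% of all protein-coding genes. The lower bound of the interval lies just under the share of all genes. Without Usp6nl the count was 24 of 65 (36.9%). The interval covers counting error only, and genes are not independent samples. Members were longer than protein-coding genes in general, with a median length of 43180 bp beside 17169 bp. Occupied protein-coding genes were also longer than the others (22176 beside 15603 bp). Whether gene length bears on the members' share was not tested.

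Among the families, 20 of the 50 USP genes (40%), 4 of the 10 OTU genes (40%) and 0 of the 5 Usp17-like genes were occupied. The Usp17-like genes are a mouse cluster of near-identical, short genes on chromosome 7, the best known of which are induced by cytokines in lymphocytes. Their nearest summit, shared by all 5, lay 265689 bp from Usp17le and 1249767 bp from Usp17ld. How reads that map to several copies were treated is not given in the sources used here, so a lack of peaks in this cluster cannot be told apart from a lack of uniquely placed reads. The 7 members on the X chromosome (Otud5, Otud6a, Usp9x, Usp11, Usp26, Usp27x and Usp51) were all unoccupied, and so was Usp9y on the Y chromosome. The WT list held only 36 peaks on X and 4 on Y, and occupied 19 of 966 protein-coding X genes (1.97%) and 1 of 256 Y genes (0.391%). The count on the sex chromosomes therefore sits at the background of those chromosomes. On the autosomes 25 of 58 members (43.1%) were occupied, beside 27.9% of all autosomal protein-coding genes.

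**Figure D1:**
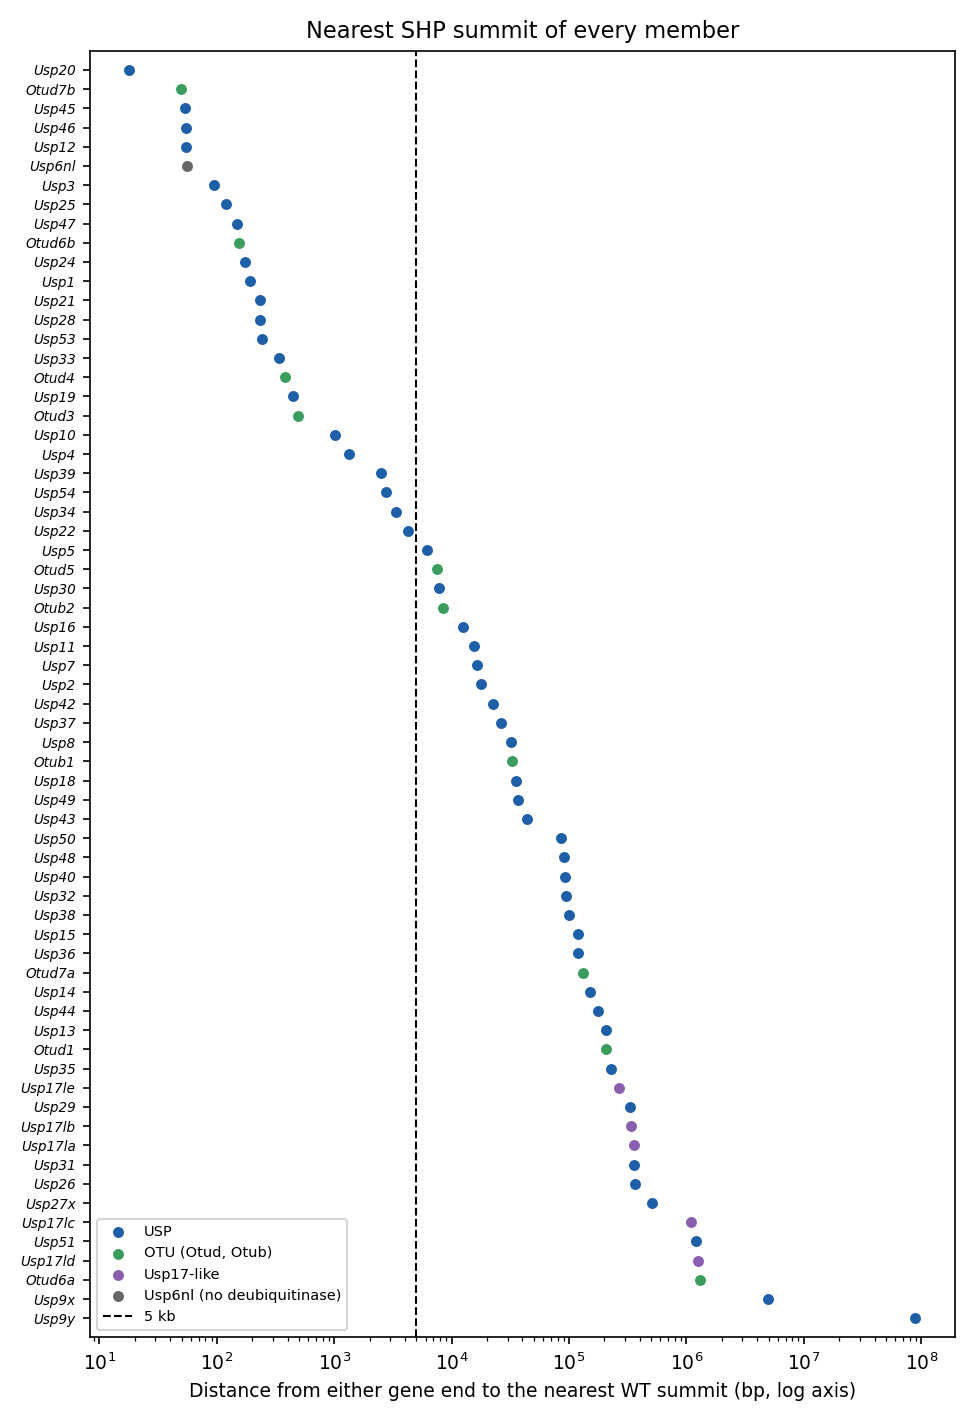
Distance in bp (log axis) from either end of each of the 66 members to the nearest WT summit, one row for each gene and coloured by family, with a dashed line at 5 kb. The 25 occupied members lie left of the line, from 18 bp at Usp20 to 4247 bp at Usp22, and Usp9y lies furthest right.

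Summits of occupied members lay close to a gene end, mostly the end where transcription starts. The nearest summit was within 1 kb for 19 of the 25 members (76% of those occupied), beside 78.3% of all occupied protein-coding genes, and its median distance was 231 bp (interquartile range 94 to 489 bp), beside 238 bp over all occupied genes. As a share of all 66 members, 28.8% had a summit within 1 kb, beside 20.7% of all protein-coding genes. The summit lay inside the gene for 15 members and outside it for 10. A transcription start was listed in the RefSeq promoter table for 51 of the 66 members, 18 of them occupied. In 17 of these 18 (94.4%) the nearest summit was at the gene end where the strand places the start. The same held for 4023 of 4663 occupied genes with a listed start in all (86.3%). The exception was Usp54, described below. The end was judged by strand, not by the listed start, and Usp45 is counted among the 17 with its summit 9162 bp from that start. The nearest summit lay within 1 kb of the listed start itself in 15 of the 18.

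To show the DNA under these peaks, the 250 bases before the listed start are printed for the 6 deubiquitinase genes whose summit lay within 100 bp of that start (RefSeq, build GRCm38.p6, 5′ to 3′ on the strand of the gene). Each of these stretches is covered from end to end by the WT peak of its gene. Capitals mark matches on either strand to any of 10 short motifs. The E-box was searched as CACGTG, the nuclear receptor site of the type bound by LRH-1 as AAGGTCA, and the ETS site as CCGGAAG. The NF-Y site was searched as CCAAT, and the GC box of SP and KLF factors as GGGCGG. The AP-1 site was searched as TGANTCA, the core of the cyclic AMP response element as TGACGT, and the YY1 site as AAGATGG. The NRF1 site was searched as GCGCATG, and the TATA box by the letters TATAAA. Matches of GGGCGG may overlap one another.
Usp12 (chr5:146794957-146795206, minus strand): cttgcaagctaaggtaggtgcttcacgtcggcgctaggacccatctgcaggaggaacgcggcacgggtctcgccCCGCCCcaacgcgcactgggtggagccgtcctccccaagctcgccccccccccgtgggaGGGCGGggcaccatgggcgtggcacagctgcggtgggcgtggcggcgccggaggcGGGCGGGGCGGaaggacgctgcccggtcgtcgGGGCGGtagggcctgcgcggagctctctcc
Usp46 (chr5:74068412-74068661, minus strand): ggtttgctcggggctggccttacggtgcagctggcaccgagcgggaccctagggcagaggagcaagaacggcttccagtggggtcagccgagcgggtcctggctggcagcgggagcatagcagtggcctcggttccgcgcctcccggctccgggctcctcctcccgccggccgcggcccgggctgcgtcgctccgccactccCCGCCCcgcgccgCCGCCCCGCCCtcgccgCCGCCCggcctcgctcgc
Usp20 (chr2:30982029-30982278, plus strand): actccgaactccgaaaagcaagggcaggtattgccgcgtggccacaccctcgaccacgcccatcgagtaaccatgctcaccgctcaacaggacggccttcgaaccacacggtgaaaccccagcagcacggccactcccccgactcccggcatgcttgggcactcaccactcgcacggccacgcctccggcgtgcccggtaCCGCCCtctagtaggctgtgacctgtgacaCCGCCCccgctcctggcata
Usp24 (chr4:106315963-106316212, plus strand): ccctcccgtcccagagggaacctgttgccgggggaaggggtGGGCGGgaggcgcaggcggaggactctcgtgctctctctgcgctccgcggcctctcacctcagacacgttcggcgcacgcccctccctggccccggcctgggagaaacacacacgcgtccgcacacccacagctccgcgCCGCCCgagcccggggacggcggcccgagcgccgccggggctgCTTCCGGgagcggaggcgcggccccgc
Usp3 (chr9:66593116-66593365, minus strand): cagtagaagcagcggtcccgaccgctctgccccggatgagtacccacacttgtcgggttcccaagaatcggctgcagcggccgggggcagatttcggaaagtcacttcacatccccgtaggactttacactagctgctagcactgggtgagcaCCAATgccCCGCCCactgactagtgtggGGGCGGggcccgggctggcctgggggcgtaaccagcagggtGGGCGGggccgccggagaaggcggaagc
Usp4 (chr9:108347581-108347830, plus strand): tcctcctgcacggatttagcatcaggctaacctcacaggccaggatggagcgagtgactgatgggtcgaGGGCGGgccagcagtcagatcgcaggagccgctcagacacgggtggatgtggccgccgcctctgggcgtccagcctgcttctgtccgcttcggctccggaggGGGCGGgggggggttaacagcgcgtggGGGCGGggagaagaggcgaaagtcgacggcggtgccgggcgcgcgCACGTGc

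The capitals in these 6 promoters are almost all GC boxes. Usp12 held 5 matches in all and Usp46 4, all of them to GGGCGG or its complement. The Usp4 promoter held CACGTG, the core of the E-box that TFEB and clock factors recognise, with its first base at position -7 counted from the start. Usp24 held the complement of CCGGAAG at position -27 and Usp3 held CCAAT at position -97. AAGGTCA was found in none of these 6, in 0 of the 18 promoters of occupied members and in 0 of the 33 of other members, beside 2.36% of the promoters of all occupied genes and 3.55% of all 17492 protein-coding promoters of the same length in the table.

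Over the 18 occupied members with a listed start, GGGCGG was present in 15 promoters (83.3%). It was present in 16 of the 33 promoters of other members (48.5%), in 65.9% of the promoters of all occupied genes and in 42.7% of all promoters, so occupied genes in general also held it more often than the rest. CACGTG was present in 3 of 18 (16.7%), namely Otud3, Usp4 and Usp6nl (not a deubiquitinase), beside 3 of 33 other members (9.09%), 9.18% of the promoters of all occupied genes and 6.65% of all promoters. CCAAT was present in 2 of 18 (11.1%), beside 13 of 33 other members (39.4%), 35.8% of all occupied genes and 36.5% of all promoters. Of these 13 members, only Usp7, Usp13, Usp29 and Usp49 were neither Usp17-like nor on a sex chromosome. Among the Usp17-like and sex-chromosome genes of the 33, GGGCGG was present only in Otud5, Usp27x and Usp51. The Usp17-like and sex-chromosome genes together thus raise the CCAAT share and lower the GGGCGG share of the other members. Not every promoter of the 18 lay under a peak, since the summits nearest to the listed starts of Usp45 and Usp54 were 9162 and 22629 bp away. The Usp10 peak began only after the listed start (peak from chr8:119910631, start at 119910360, plus strand). Usp37, with a summit 495 bp before its listed start, was counted among the 33 other members. A match is a run of letters and was not tested as a binding site.

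**Figure D2:**
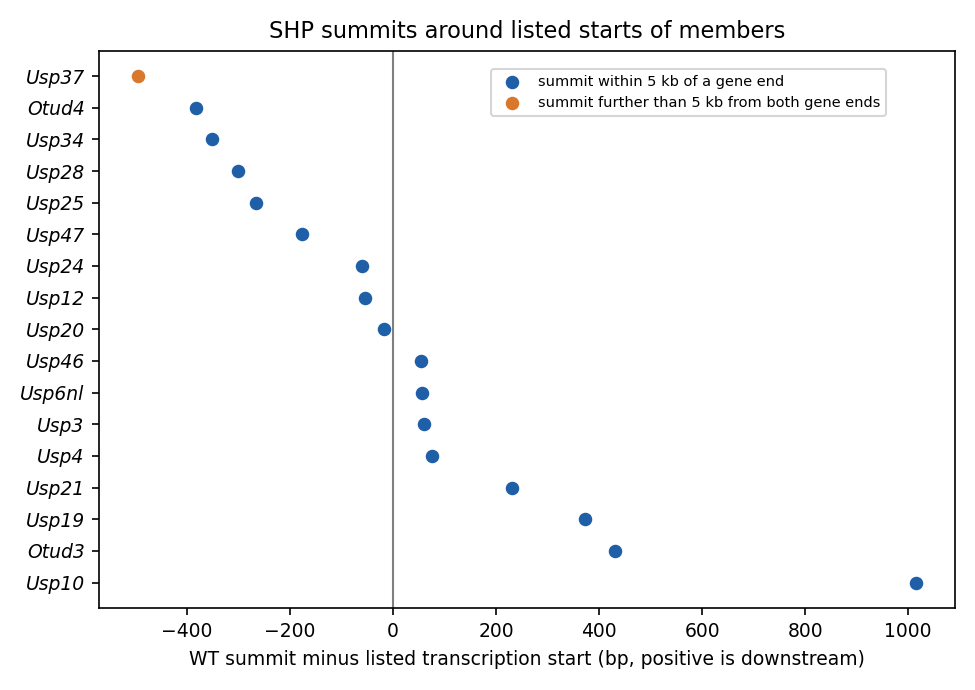
Position of the WT summit nearest to the listed transcription start, in bp with positive values downstream, for the 17 members with a summit within 1500 bp of it. Summits range from -495 bp at Usp37 (orange, far from both gene ends) to 1015 bp at Usp10, and Usp12, Usp20, Usp24, Usp3, Usp4, Usp46 and Usp6nl lie within 100 bp of the start.

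Occupied members had GC-rich promoters, as did occupied genes in general. The median GC content of the 250 bases was 70.2% in 18 occupied members, 61.6% in 33 other members, 62.8% in all occupied genes and 52.4% in all other genes. A promoter was called CpG-rich where it had at least 50% GC and an observed-to-expected CpG ratio of at least 0.6. Of the members with CpG-rich promoters, 13 of 33 were occupied (39.4%, 95% exact interval 22.9 to 57.9), beside 3351 of 7310 such genes in all (45.8%). Of the members with other promoters, 5 of 18 were occupied (27.8%, 9.69 to 53.5), beside 1312 of 10182 (12.9%). These 5 include Usp45 and Usp54, whose summits lay 9162 and 22629 bp from the listed start. They also include Usp10, whose peak began only after its listed start. With the 50 bases after the start included, the counts were 16 of 37 (43.2%), beside 44.8% of all CpG-rich promoters, and 2 of 14 (14.3%), beside 11.4% of all others. Among genes with CpG-rich promoters the members' share was not above that of all genes with either window. Among genes with other promoters it was above with both. By the 250 bases, 72.2% of occupied members and 60.6% of other members had CpG-rich promoters. The shares were 71.9% of all occupied genes and 30.9% of all other genes. The 33 other members take in Usp17-like genes and genes on the sex chromosomes, described above. Of these only Otud5, Otud6a and Usp27x had CpG-rich promoters, so together they lower the share of the other members. The share and the median GC content without them are not given. Whether promoter composition is behind the occupancy of members was not tested.

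**Figure D3:**
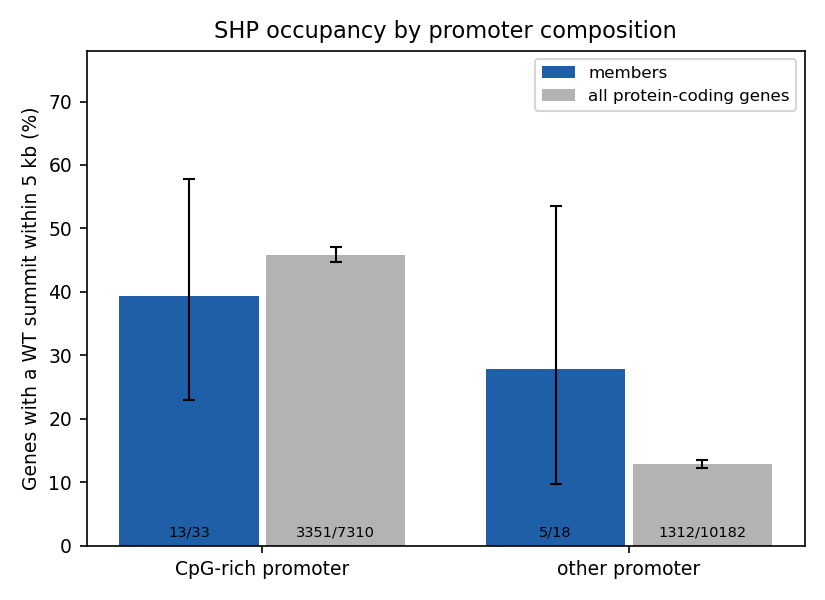
Percentage of genes with a WT summit within 5 kb, for genes with a CpG-rich promoter and genes with another promoter, members in blue and all protein-coding genes in grey, with 95% exact binomial intervals and counts at the foot of each bar. Members with CpG-rich promoters stand at 39.4% beside 45.8% of all such genes, and the intervals of the members are wide.

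The enrichment values of member peaks were centred near the middle of the list. The 25 occupied members had 28 summits within 5 kb, with 1 summit at 22 members and 2 summits at Usp3, Usp33 and Usp54. The strongest peak of each occupied member had a median enrichment value of 5.64 (interquartile range 5.02 to 6.42), beside 5.73 over all occupied protein-coding genes. Values ran from 3.38 at Usp20 to 7.99 at Otud3. At or above the list's median of 5.65 were 12 of the 25 members, and 13 were below it. Peak widths had a median of 1004 bp (interquartile range 876 to 1304 bp), beside 978 bp over the list.

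**Figure D4:**
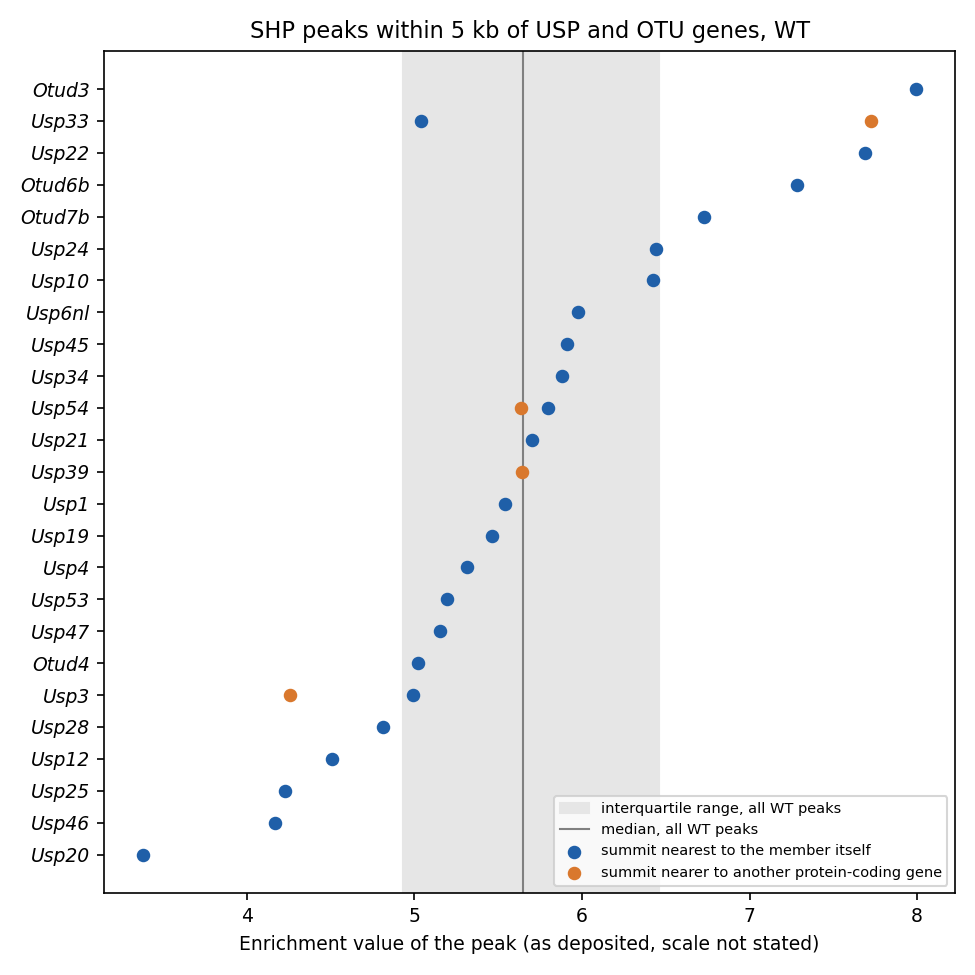
Deposited enrichment value of each of the 28 WT peaks within 5 kb of a member, one row for each of the 25 occupied members, with the interquartile range and median of all 5775 peaks in grey. Blue points are summits for which the member is the nearest protein-coding gene, orange points summits nearer to another gene, and the values run from 3.38 at Usp20 to 7.99 at Otud3.

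OTU genes supplied 3 of the 5 highest values. Otud3 had the highest value, 7.99, at chr4:138913081-138914052 (rank 199 of 5775 by enrichment value, ties sharing the best rank, summit 489 bp inside the gene and 431 bp after its listed start). Otud6b, a deubiquitinase linked to proteasome assembly and protein synthesis, had a value of 7.29 at chr4:14826000-14826749 (rank 489), with the summit 155 bp outside the gene. Otud7b, also called Cezanne, which cleaves K11-linked chains, had 6.73 at chr3:96104249-96105145 (rank 1026), with the summit 49 bp inside. Otud4, a scaffold for other deubiquitinases in the repair of alkylated DNA, had 5.02 (rank 4144) with the summit 382 bp outside the gene. These 4 had summits within 1 kb, and the other 6 OTU genes, Otub1, Otub2, Otud1, Otud5, Otud6a and Otud7a, had none within 5 kb. Otub1, which blocks the ubiquitin-conjugating enzyme UBE2N, had its nearest summit 32355 bp away.

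Enzymes that act on histones were partly occupied, and those described here are examples, not a full list. Usp22, the deubiquitinase of the SAGA coactivator complex, had a value of 7.69 at chr11:61146932-61147644 (rank 285), but its summit lay 4247 bp outside the gene, the greatest distance of any occupied member. Usp3, which removes ubiquitin from H2A, had a peak of 4.99 (rank 4191) with the summit 61 bp after its listed start. A further Usp3 peak of 4.26 lay beyond the opposite end, 2631 bp from Fbxl22, to which it was nearer than to Usp3 (2677 bp). Usp21, another H2A deubiquitinase, had 5.70 (rank 2815) with the summit 231 bp inside, and 834 bp from Ufc1, a conjugating enzyme for the ubiquitin-like protein UFM1. Usp16, which also acts on H2A, had no summit within 5 kb (12420 bp), and its relative Usp45 had one. The relatives of Usp3, Usp44 (176729 bp) and Usp49 (37095 bp), had none within 5 kb. Neither had Usp42 (22351 bp), nor the relatives of Usp22 on the X chromosome, Usp27x (508265 bp) and Usp51 (1203229 bp).

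Of the other occupied USP genes, Usp1, which with WDR48 removes ubiquitin from FANCD2 and PCNA, had a value of 5.54 (rank 3135) at chr4:98922785-98924527, the widest of the member peaks at 1743 bp, with the summit 192 bp inside. Usp45, which acts on the ERCC1-XPF nuclease, had 5.91 (rank 2363) in the narrowest peak, 347 bp, at chr4:21766957-21767303. That summit was 53 bp outside Usp45 and 103 bp from Tstd3, and lay 9162 bp before the listed start of Usp45. Usp47, which deubiquitinates DNA polymerase beta, had 5.15 (rank 3886, 177 bp before its listed start). Usp28, known for stabilising MYC, had 4.81 (rank 4513, 300 bp before the start), and its close relative Usp25 had 4.23 (rank 5206, 266 bp before the start). Usp10, which binds G3BP proteins and deubiquitinates p53, had 6.42 (rank 1482) with the summit 1015 bp inside the gene. Usp24, a large relative of Usp9x, had 6.44 (rank 1460) with the summit 61 bp before its listed start.

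Usp12 and Usp46 encode close relatives that are both activated by WDR48 and WDR20. Their summits were equally far from the listed starts, but on opposite sides. A summit within 100 bp of the start was not particular to this pair, as Usp3, Usp4, Usp20, Usp24 and Usp6nl had one too. The Usp12 summit lay 55 bp before the listed start, in a peak of 4.51 at chr5:146793936-146795235 (rank 4913). The Usp46 summit lay 55 bp after the listed start, in a peak of 4.17 at chr5:74067922-74069038 (rank 5255). Both values were below the lower quartile of the list, 4.93.

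Usp20 and Usp33, related enzymes that bind the von Hippel-Lindau protein, differed in their peaks. Usp20 is known in mouse liver for stabilising HMG-CoA reductase, the rate-limiting enzyme of cholesterol synthesis, after feeding. Its peak at chr2:30981581-30982896 had the lowest value of all occupied members, 3.38 (rank 5652), with the summit closest to a gene end, 18 bp. BC005624 lay 320 bp from the same summit. Usp33 had 2 peaks. The peak at chr3:152346279-152346869 had a value of 5.04 with the summit 339 bp inside the gene. The peak at chr3:152395549-152396865 had 7.72 (rank 273) and the largest −log10 p of the member peaks, 34.0, but its summit was 3045 bp outside Usp33 and 1189 bp from Zzz3, a subunit of the ATAC histone acetyltransferase complex.

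Among members with other roles, Usp19, which has an isoform anchored in the endoplasmic reticulum, had 5.46 (rank 3340) with the summit 441 bp inside the gene and 518 bp from Lamb2. Usp4, which acts in splicing and TGF-beta signalling, had 5.32 (rank 3581), 1343 bp from the gene end but 76 bp after the listed start. Usp34, which acts on axin in Wnt signalling, had 5.88 (rank 2430), with the summit 3358 bp inside the annotated gene and 352 bp before the listed start. For these last 2 genes the distance to the gene end overstates the distance to a listed start. Usp53, a protein of tight junctions, had 5.19 (rank 3830) with the summit 244 bp inside. Usp54, its relative, had a peak of 5.80 (rank 2606) that was 3508 bp inside one end and 22629 bp from the listed start. Its other peak, 5.64, was 2783 bp beyond the far end and 444 bp from Ppp3cb, a catalytic subunit of calcineurin. Usp39, a splicing protein that lacks the catalytic residues of the family, had 5.64 (rank 2900) with the summit 2517 bp outside the gene and 691 bp from 0610030E20Rik. Usp6nl had 5.98 (rank 2238) with the summit 56 bp inside.

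The share of members with a summit was followed over other counting rules. Within 10 kb 29 of 66 members (43.9%) had a summit, beside 30.5% of all protein-coding genes, and within 50 kb 40 (60.6%), beside 48.2%. With each summit given to its nearest protein-coding gene only, 24 members (36.4%) were occupied, beside 21% of all genes. When any base of a peak within 5 kb counted, 25 members were occupied (37.9%), beside 26.9%. Against genes with curated names (without Gm, Rik, Olfr, Vmn and Taar symbols) the background at 5 kb was 30.1%. With the peaks whose −log10 p reached the list's median, 15 members (22.7%) were occupied, beside 14.8% of all genes. With the peaks at or above the 75th percentile of the enrichment value, 5 members (7.58%) were occupied, beside 6.89%, so among the strongest peaks the members' share was near the background. These 5 members were Otud3, Usp33, Usp22, Otud6b and Otud7b.

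One summit can fall within reach of neighbouring genes. The strongest summit was also within 5 kb of another protein-coding gene for 7 of the 25 occupied members (28%), beside 45.1% of all occupied protein-coding genes. These were Otud4 (with Gm51579), Usp19, Usp20, Usp21, Usp33, Usp39 and Usp45. For 24 of the 25 members at least 1 summit was nearer to the member than to any other protein-coding gene, and the exception was Usp39.

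**Figure D5:**
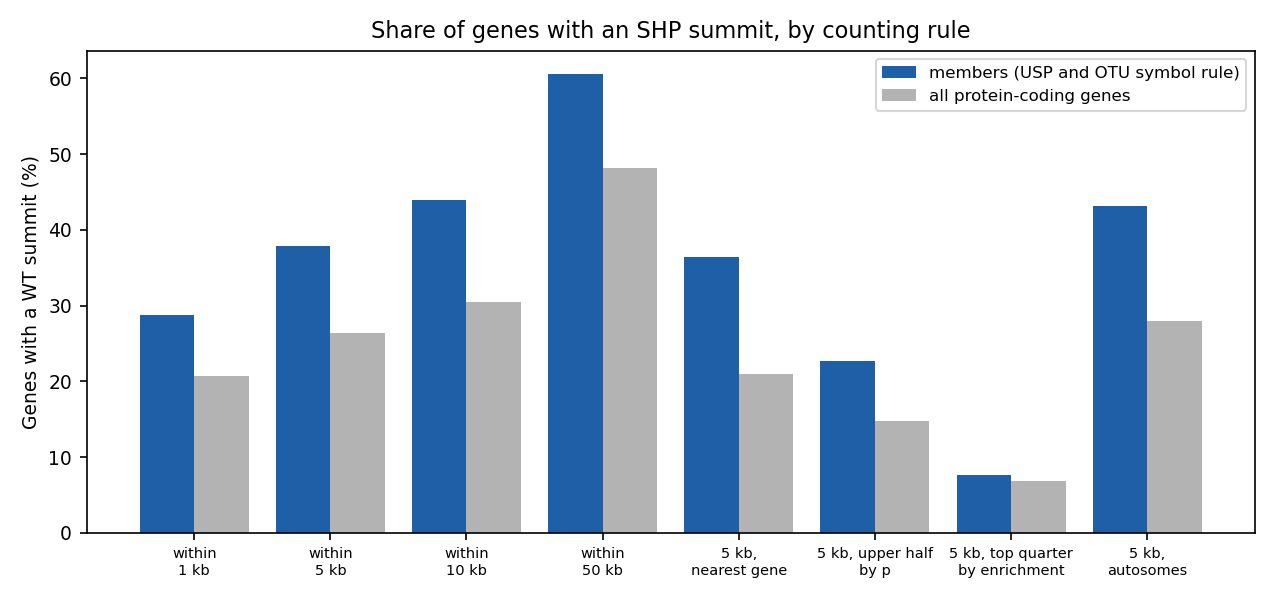
Percentage of members (blue) and of all protein-coding genes (grey) with a WT summit, for windows of 1 to 50 kb around the gene ends and, within 5 kb, for the nearest gene only, for the stronger peaks by p and by enrichment value, and for autosomal genes. The members' bar is the higher one for each of these rules, with 7.58% beside 6.89% for the peaks at or above the 75th percentile of the enrichment value.

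Of the 41 members without a summit within 5 kb, 4 had one between 5 and 10 kb, 11 between 10 and 50 kb, and 26 further away. Just outside the limit were Usp5, which disassembles unanchored ubiquitin chains (6110 bp, peak of 5.40), Otud5 (7469 bp, 7.50), Usp30, which opposes mitophagy at the mitochondrial outer membrane (7738 bp, 5.56), and Otub2 (8453 bp, 6.77). Just inside it were Usp22 (4247 bp) and Usp34 (3358 bp). Several widely studied enzymes were among the unoccupied members. They include Usp7, the deubiquitinase of MDM2 and p53 (16586 bp), Usp2, which is linked to the circadian clock (17732 bp), Usp8, which acts in endosomal sorting (31838 bp), and Usp18, which removes ISG15 (35122 bp). Usp14, which works on the proteasome, had its nearest summit 152104 bp away. The remaining members were Usp13, Usp15, Usp29, Usp31, Usp32, Usp35, Usp36, Usp37, Usp38, Usp40, Usp42, Usp43, Usp44, Usp48, Usp49 and Usp50, at distances from 22351 bp (Usp42) to 359527 bp (Usp31).

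Usp42 and Usp37 were unoccupied by the distance rule although a summit lay inside the gene. Usp42, a deubiquitinase reported to act on p53 and histone H2B, had a peak at chr5:143731473-143732847 with a value of 8.32 (rank 109), above that of every occupied member, and its summit was 22351 bp from the nearer end. No start is listed for Usp42 in the promoter table. Usp37, a cell cycle deubiquitinase, had a peak of 4.51 at chr1:74505460-74506886, 37970 bp from an end of the annotated gene but 495 bp before its listed start. With distances taken to listed starts, 17 of 51 members (33.3%) had a summit within 5 kb, beside 24.3% of all genes in that table. These 17 took in Usp37 and left out Usp45 and Usp54.

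Occupancy was set side by side for close relatives, as a description with no expected value. Sets of relatives were drawn up from general knowledge of the families, without a sequence comparison. Of 20 sets of 2 or 3 members, 4 were occupied in full (Usp12 with Usp46, Usp20 with Usp33, Usp25 with Usp28, and Usp53 with Usp54), 6 had no occupied gene and 10 had some. In the mixed sets, Usp4 was occupied without Usp11 and Usp15, Usp22 without Usp27x and Usp51, Usp24 without Usp9x and Usp9y, and Otud7b without Otud7a. Usp11, Usp27x, Usp51, Usp9x and Usp9y lie on the sex chromosomes, where few genes of any kind had peaks. Otub1 and Otub2 were both unoccupied, as were Usp5 and Usp13.

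Related genes outside the symbol rule, comprising other proteases of ubiquitin and ubiquitin-like proteins, inactive relatives of these and partner proteins, were occupied at 30 of 63 genes (47.6%, 95% exact interval 34.9 to 60.6), beside 37.9% of the members and 26.4% of all genes. With each summit given to its nearest protein-coding gene only, the other lists were no longer above the members. Then 24 of 67 genes of all these lists, a small unreported one included, were occupied (35.8%). The members stood at 36.4% and all genes at 21% by that rule. The families behind the count of 30 were small. Proteases for SUMO and other ubiquitin-like proteins had summits at 11 of 15 genes, led by Desi2 (8.61), Senp6 (7.77) and Atg4b (6.65), the last a protease of LC3 in autophagy. The others were Senp5 (6.12), Desi1 (6.10), Senp8 (5.83), Ufsp1 (5.58), Ufsp2 (5.58), Senp3 (5.36), Atg4d (4.96) and Senp2 (4.83). USP or OTU domain genes with other names had them at 4 of 9, Pan2 (6.16), Zranb1 (5.96), Yod1 (5.80) and Tnfaip3 (4.12), the last a brake on NF-kB signalling. The JAMM metalloproteases and their inactive relatives had them at 5 of 12, Mysm1 (6.61), Cops5 (6.56), Psmd7 (6.56), Mpnd (5.47) and Stambpl1 (4.35). The UCH family had them at 2 of 5, Uchl5 (6.51) and Bap1 (4.86), the MINDY and ZUFSP families at 2 of 5, Mindy2 (5.98) and Mindy1 (4.11), and the MJD family at 2 of 3, Josd2 (6.08) and Josd1 (4.86).

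Partner proteins of the USP and OTU enzymes were occupied at 4 of 14 genes (28.6%), close to the share of all genes. Atxn7 and Atxn7l3, which belong with Usp22 to the deubiquitinase module of SAGA, had values of 8.25 and 5.55, and Eny2 of the same module had no summit within 5 kb. Wdr48, the activator of Usp1, Usp12 and Usp46, had none. Neither had Wdr20, which also activates Usp12 and Usp46, nor Gmps, the partner of Usp7. The remaining occupied partners were Faf1 (4.53) and G3bp2 (3.70).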

How the data were processed

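The series holds SHP ChIP and input samples of SHP-KO and WT intestine. Per the submitters' processing notes, CASAVA 1.4, BWA and the build mm10 were used. Which program called the peaks, whether input served as its control and whether sets were pooled is not stated there. Input samples were not analysed here. The deposited peak lists have 10 columns and no header. The deposited signal (enrichment value), score, −log10 p and −log10 q are the authors' own, and were used only within a list. By its name, the WT list was kept at an irreproducible discovery rate (IDR) of 0.05, and the SHP-KO list holds overlapping peaks.

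Positions were made 1-based. Genes came from RefSeq (GRCm38.p6), with 21887 protein-coding genes, and starts and promoter bases from a RefSeq promoter table with entries for 17492 of them. Distances were from summit to gene end. All occupied members are named, with values for the strongest summit and any other within 5 kb, then members with a summit at 5 to 10 kb and the rest, and from the other lists the occupied genes. A small list of other genes is not reported here and is left out of the 63 genes of the other lists. Shares carry exact binomial 95% intervals. The members, lists and alternatives were chosen with earlier results of these data known. No test was run, because each genotype has 1 list. Protein identity between relatives, planned, was not run. The distance step was checked on simulated peaks. Python 3.11.15, pandas 2.3.3, SciPy 1.17.1 and matplotlib 3.10.9 were used.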

Additional observations from a re-analysis of the deposited data

How the results depend on the processing

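Not split by promoter, the share of members with a summit was above that of all protein-coding genes under each alternative run. The exception was the peaks of highest enrichment value within 1 kb. The count changed with the peaks and the window. Among genes with CpG-rich promoters the members' share was the lower one. It was 39.4% beside 45.8%, and 43.2% beside 44.8% with the longer promoter window. Counts of occupied members were 40 within 50 kb (60.6%, beside 48.2% of all genes), 15 with the peaks whose −log10 p reached the median (22.7%, beside 14.8%) and 5 with those whose enrichment value reached the 75th percentile (7.58%, beside 6.89%). The other 9 alternatives gave 17 to 29 members. Against genes without Gm, Rik, Olfr, Vmn and Taar symbols the background was 30.1%, and without the Usp17-like genes 25 of 61 members (41%) were occupied. Within 1 kb the count of 19 became 9 (13.6%, beside 11.6%) at the median −log10 p, and 3 (4.55%, under the 5.03% of all genes) at the 75th percentile. At that percentile and within 5 kb, the median enrichment value of members became 7.69 by construction. Of all other lists, the unreported one included, 10 of 67 genes (14.9%) were then occupied, beside 6.89% of all genes. No member had a KO summit under any of the 8 alternatives, the 50 kb window included.

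Members whose strongest summit was shared numbered 14 of 29 occupied within 10 kb and 34 of 40 within 50 kb. They numbered 3 of 17 with listed starts, 3 of 15 at the median −log10 p and 1 of 5 at the 75th percentile. With the nearest gene only, which allows no sharing, they were 0 of 24. No share over all occupied genes is given for these rules, so the counts are not read as particular to the members. Fully occupied sets of relatives numbered 7 within 50 kb, 2 with listed starts, 1 at the median −log10 p and 0 at the 75th percentile. Usp33 and Usp53 have no listed start, so Usp20 with Usp33 and Usp53 with Usp54 could not count as full by listed starts. Alternatives without Usp6nl, for autosomes, within 1 kb at other thresholds, for sets of relatives and for the longer promoter window were added after the data were seen. No paired analysis was possible because each genotype has 1 peak list. A member without a listed peak may still be bound below the filter of the WT list.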

Other observations

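Of the 28 member peaks, 27 (96.4%) carried an enrichment value and a −log10 p that another WT peak carried too, beside 89.9% of all 5775 peaks. The combination 4.51 and 11.6 stood at Usp12, at the peak inside Usp37 and at the peak nearest to the listed start of Usp40. The combination 7.69 and 17.3 stood at Usp22 on chromosome 11 and at the peak 15446 bp from Usp11 on the X chromosome. Ranks of member peaks within the list therefore carry many ties.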
